A study of Mus musculus with 17 samples.

Results

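The genes described here are the replication-dependent histone genes. They are the rows of the deposited TPM table, which holds transcript abundance per length as a share of each library's total, whose symbol begins with Hist1h, Hist2h, Hist3h or Hist4h and whose value reached 1 TPM in at least 2 of the 17 libraries. Of 70 such symbols among 53278 in the table, 60 passed, and 15066 symbols of all kinds passed the same filter. The 60 genes were 5 of H1, 16 of H2a, 16 of H2b, 10 of H3 and 13 of H4. In the GENCODE M21 annotation of GRCm38, the assembly also called mm10, 51 of them lie on chromosome 13, 5 on chromosome 3, 3 on chromosome 11 and 1 on chromosome 6. Of the members, 3 are annotated as pseudogenes (Hist1h2aj, Hist1h2al and Hist3h2bb-ps). At the edge of the rule, the lowest second-highest values inside it were those of Hist1h2bq (1.03 TPM) and Hist3h2ba (1.06 TPM), and the highest outside it were those of Hist1h1t (0.456 TPM) and Hist1h2ap (0.401 TPM).

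The study addressed what maternal IgA does to the developing intestine of the young. Every mouse sampled was Igha -/+ on a C57BL/6 background and was nursed by a C57BL/6 dam, which has IgA (B6 dam), or by an IgA -/- dam, which has none (IgA-null dam). Small-intestinal cells were sorted as EpCAM+ CD45- Ter119- on day 14, 24 or 42 of life and frozen, which gave 6 groups of 3 libraries each, except the B6 dam group of day 24 with 2. The labels do not name the litter or dam of a mouse, so p-values measure only the spread between these samples, and the dates given differ between the dams at days 14 and 24, where date and dam cannot be told apart, but not at day 42. Within each dam the dates of days 14 and 24 differ, so age and date cannot be told apart there either. Those of days 24 and 42 differ with the B6 dam and are the same with the IgA-null dam.

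Histones are the proteins around which DNA is wrapped: H2A, H2B, H3 and H4 form the core of the nucleosome, and H1 binds the DNA that enters and leaves it. Genes of the replication-dependent kind lie in clusters and are transcribed mainly in S phase, when new chromatin needs them, so that in the intestine they are made by the dividing cells of the crypt. Their mRNAs end in a conserved stem-loop in place of a poly(A) tail, and the stem-loop binding protein Slbp directs the cut behind it. The kit used to amplify the RNA (SMART-seq v4) primes on poly(A), and how far that sets the level of a histone gene in these libraries was not tested.

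The stem-loop was searched for in the GENCODE M21 transcripts, on the transcript's own strand, as a motif of 16 bases with 6 pairs in its stem. Of all 55341 genes there, 0.627% hold a match. Among the members, 17 transcripts end within 60 bases after the match, 21 run on further, and 22 hold no match. A missing match describes the annotated model and does not show that the gene lacks a stem-loop. Some of these models are short, with 393 bases for Hist1h2ai and 312 for Hist1h4k. The sites printed here show the end that sets these mRNAs apart and belong to genes that recur in the results. Capitals mark the stem-loop, and each site lies in the annotated 3′ UTR and reads 5′ to 3′ along the mRNA. On GRCm38 they are at chr13:23757361-23757390 (plus strand) for Hist1h4b, chr13:22036295-22036324 (plus strand) for Hist1h2bk, chr13:23752815-23752844 (plus strand) for Hist1h3b, chr13:23739507-23739536 (plus strand) for Hist1h1c and chr3:96220409-96220438 (minus strand) for Hist2h2ac.
Hist1h4b: caaaaGGTCCTTTTCAGGACCactcactga
Hist1h2bk: ccaaaGGCTCTTTTAAGAGCCactaaacca
Hist1h3b: ccaaaGGCTCTTTTCAGAGCCacccacagt
Hist1h1c: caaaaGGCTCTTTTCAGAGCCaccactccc
Hist2h2ac: aaaaaGGCTCTTTTTAGAGCCaccaaatct
The annotated transcript of Hist1h4b ends 28 bases after its stem-loop, and that of Hist1h1c 840 bases after. The first 6 letters of the stem-loop are the same in all of these sites except that of Hist1h4b.

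Many of these genes are near copies of one another, so the division of reads among them is uncertain. The median member shared 48.2% of the 50-base windows of its transcript with another gene, with a highest value of 97.3%. Exons of 19 members overlap another annotated gene, mostly a predicted gene on the opposite strand, and the library kit does not mark strand. Hist1h4b overlaps 4930558J22Rik by 223 bases, and the latter stayed at or under 0.140 TPM in every library. Hist1h1e and Hist1h2be overlap by 496 bases on the same strand.

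The libraries held 8926992 to 18897602 reads in genes of known length, as recovered from the TPM steps, and the day 14 group of the IgA-null dam held the lowest, with 8926992 to 11851497. TPM outside the model Gm23935 and the mitochondrial genes made up 18.8% to 19.7% of the total at day 14 with the B6 dam, 24.7% to 30.9% with the IgA-null dam, and 10.3% to 15.2% at day 24 with the IgA-null dam. Most genes differed together between some groups, so every test is given as deposited and also scaled, after division of each library by its median-of-ratios size factor. Levels in TPM and marker sums are as deposited unless called scaled. These factors were 1.14 to 1.21 and 1.41 to 1.84 at day 14 and 0.675 to 1.09 and 0.480 to 0.722 at day 24 for the B6 and IgA-null dams. Over all 15066 genes, the median difference between the dams at day 14 was 0.33 on the log2 scale as deposited and -0.0097 scaled.

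Summed over the 60 genes, histone mRNA was highest at day 14 and higher there with the IgA-null dam. The sums were 2627, 2158 and 2272 TPM with the B6 dam and 4238, 3722 and 4419 TPM with the IgA-null dam at day 14. They were 1588 and 814 TPM and 834, 869.7 and 521 TPM at day 24, and 786, 1071 and 1235 TPM and 1139, 1206 and 1016 TPM at day 42. Each library of day 14 lay over every library of the later days, and the dams did not overlap at day 14, on either scale. Scaled day 14 sums were 1778 to 2304 in young of B6 dams and 2404 to 2640.2 in young of IgA-null dams, and at day 24 they were 1206 to 1463 and 1087 to 1599 in the same order. The ratio of the group means, IgA-null dam over B6 dam, was 1.75 at day 14 (1.27 scaled) and 0.617 at day 24 (0.960 scaled). The ratio of day 14 over day 24 was 5.56 with the IgA-null dam (1.98 scaled) and 1.96 with the B6 dam (1.498 scaled). In libraries made from many cells, fewer dividing cells and less histone RNA per cell cannot be told apart.

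Per length, the highest mean levels over all libraries were those of the linker histone genes Hist1h1b and Hist1h1c, where the H1 genes had 136 TPM for Hist1h1b, 129 for Hist1h1c, 101 for Hist1h1e and 87.1 for Hist1h1a. The order differed between groups: with the IgA-null dam at day 14, Hist1h2bn (343, 268 and 288 TPM) and Hist1h2bb (317, 272 and 294 TPM) had higher means than Hist1h1b (234, 238 and 279 TPM). The highest mean of the members in that group was that of Hist1h1c. Over all libraries the leading H2b genes had mean levels of 114 TPM (Hist1h2bn), 91.9 (Hist1h2bb), 49.98 (Hist1h2bc) and 39.5 (Hist1h2bj). Those of H4 had 92.5 TPM (Hist1h4d), 72.4 (Hist1h4h), 55.2 (Hist1h4f) and 52.6 (Hist1h4k). For H2a the mean level over all libraries was 56.6 TPM for Hist1h2ak, 56.2 for Hist1h2ab, 49.2 for Hist2h2ac and 37.97 for Hist1h2ai. For H3 it was 35.2 TPM (Hist1h3e), 31.7 (Hist1h3i), 29.9 (Hist1h3b) and 17.3 (Hist1h3a). The lowest mean levels of the types ran from 0.382 TPM in H2b to 18.1 TPM in H1. These levels, and sums of them, depend on the length of the annotated model. Hist1h1d, at 18.1 TPM, has a model of 7425 bases and a mean of 1953 recovered reads. Hist1h1b has 743 bases and 1507 reads.

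**Figure D1:**
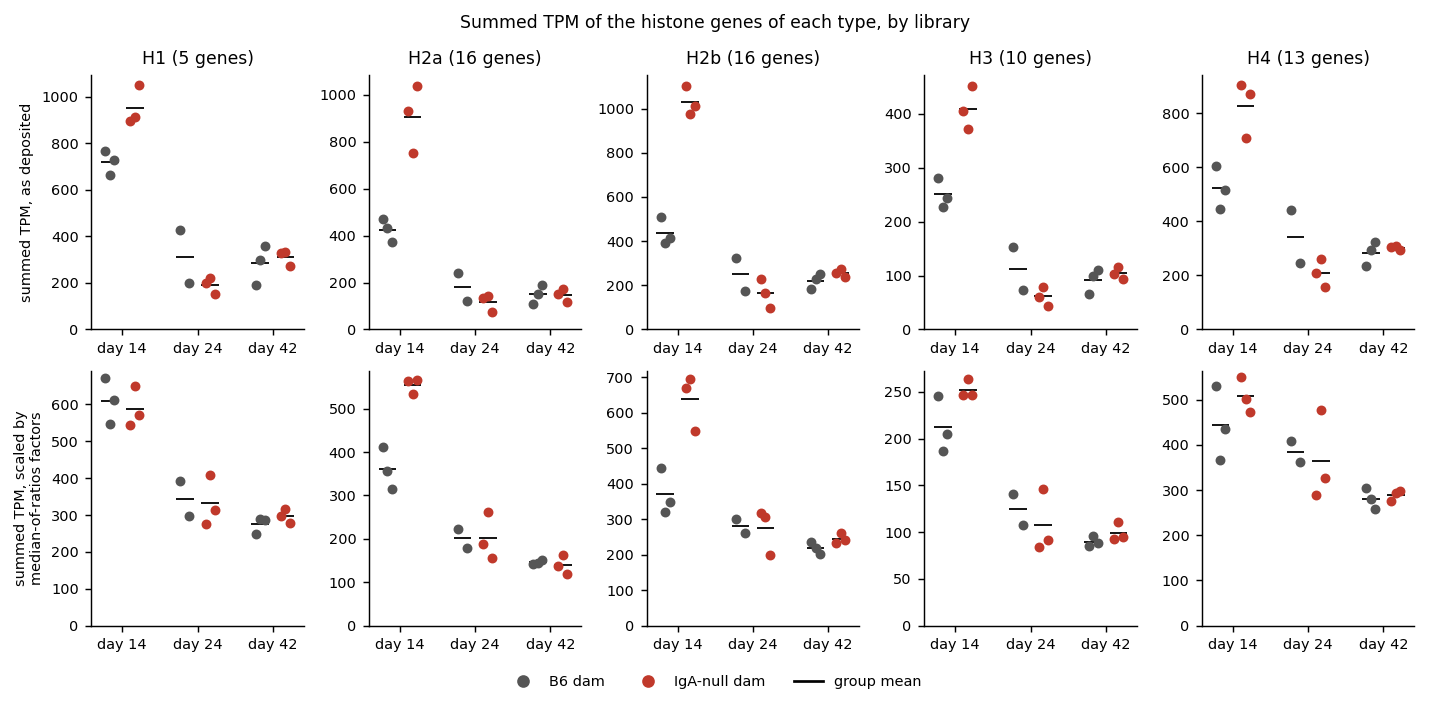
Summed TPM of the genes of each histone type in each of the 17 libraries, as deposited and scaled; points are libraries, lines are group means, and the axes start at 0. Every type has its highest mean as deposited at day 14 with the IgA-null dam, where H2a sums to 751 to 1038 TPM against 373 to 470.1 TPM with the B6 dam.

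At day 14, most of the members called higher with the IgA-null dam than with the B6 dam were H2a and H2b genes. They were a minority of each of these types, and no H1 gene passed the test. As deposited, limma called 18 of the 60 members higher and none lower, where 8.68% of all genes were called (8.32% higher). Scaled, 11 were called higher and none lower, where 2.97% of all genes were called (1.81% higher), and all 11 were among the 18. These were 7 of 16 H2a genes (4 scaled), 7 of 16 H2b genes (5 scaled), 1 of 10 H3 genes (1 scaled), 3 of 13 H4 genes (1 scaled) and 0 of 5 H1 genes (0 scaled). The 7 H2b genes include Hist1h2bq, which reached 1 TPM in only 3 libraries. The median log2 fold change of the members was 0.61, where that of every gene tested was 0.33, and 0.17 scaled, where that of every gene tested was -0.0097.

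The sums by type differed most for H2b and H2a. H2b summed to 507, 390.0 and 414 TPM with B6 dams and to 1104, 977 and 1009 TPM with IgA-null dams, a ratio of the means of 2.36 (1.72 scaled). H2a summed to 470.1, 433 and 373 TPM and 929.7, 751 and 1038 TPM, a ratio of 2.13 (1.53 scaled). In both types the dams did not overlap on either scale. The ratio was 1.64 for H3 (1.18 scaled), 1.59 for H4 (1.15 scaled) and 1.33 for H1 (0.963 scaled). The H1 sums, 764, 664 and 727 TPM and 894, 914 and 1049 TPM, did not overlap as deposited and did so when scaled (547 to 670.1 and 543 to 648). No test was made of the sums.

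**Figure D2:**
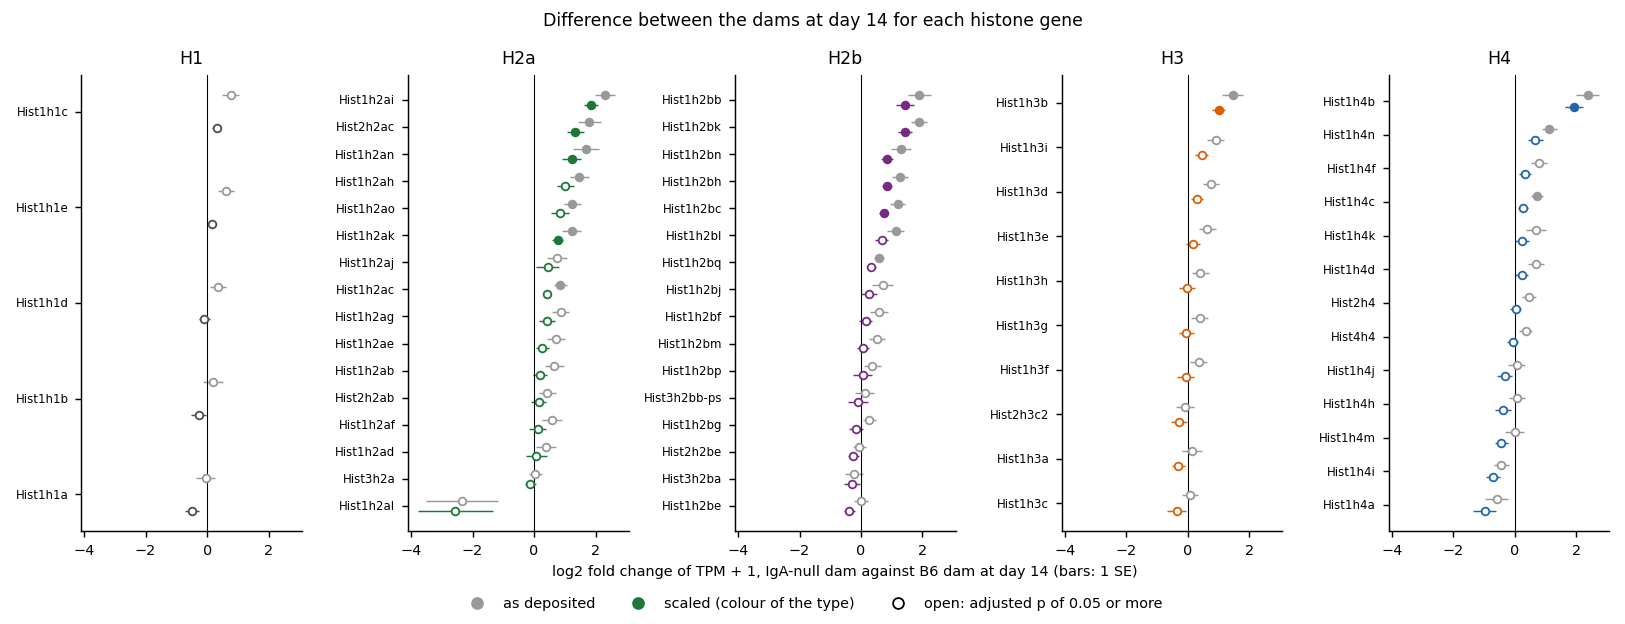
log2 fold change of TPM + 1 between the dams at day 14 for each of the 60 genes, by type, as deposited and scaled, with bars of 1 SE and filled points where the adjusted p was under 0.05. Hist1h4b (2.38) and Hist1h2ai (2.31) lie farthest to the right, and the 5 H1 genes have open points on both scales.

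Of the H2a genes, whose product pairs with H2B in the core, 4 were called on both scales. Hist1h2ai (chromosome 13, 21716422 to 21716814) stood at 29.2, 30.8 and 25.7 TPM in the B6 dam libraries and at 155, 124 and 158 TPM in those of the IgA-null dam. All values of the latter lay over those of the former, and the log2 fold change was large on both scales (2.31, SE 0.33, adjusted p = 0.0017, and 1.85 scaled, adjusted p = 0.0025). Of the 50-base windows of Hist1h2ai, 90.1% occur in another gene, so the division of its reads is uncertain. Hist2h2ac, from the small cluster on chromosome 3, went from 51.9, 43.9 and 40.5 TPM to 158, 119 and 218 TPM (1.80, SE 0.39, adjusted p = 0.013, and 1.34 scaled, adjusted p = 0.023). Hist1h2an went from 25.5, 28.6 and 19.4 TPM to 78.9, 65.1 and 98.9 TPM (1.68, SE 0.42, adjusted p = 0.024, and 1.22 scaled, adjusted p = 0.048), and Hist1h2ak from 77.6, 59.8 and 68.4 TPM to 159, 132 and 196 TPM (1.22, SE 0.32, adjusted p = 0.028, and 0.76 scaled, adjusted p = 0.038). In each of the 4 the dams did not overlap. Hist1h2ab, which had the higher mean of the pair Hist1h2ab and Hist1h2ak with the B6 dam, had 93.5, 87.4 and 69.5 TPM and 144, 106 and 146 TPM and was not called (0.65, SE 0.31, adjusted p = 0.16, and 0.19 scaled, adjusted p = 0.69). Hist1h2ac, Hist1h2ah and Hist1h2ao passed as deposited but not scaled (adjusted p = 0.083, 0.056 and 0.13 in the latter).

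Of the H2b genes, 5 were called on both scales. Hist1h2bk (chromosome 13, 22035870 to 22036345) stood at 9.38, 9.92 and 8.86 TPM in young of B6 dams and 37.9, 33.9 and 40.8 TPM in young of IgA-null dams (1.89, SE 0.26, adjusted p = 0.0014, and 1.43 scaled, adjusted p = 0.009). Its libraries were close within each group, and it had the smallest adjusted p of the members as deposited. Hist1h2bb went from 94.1, 65.8 and 77.05 TPM to 317, 272 and 294 TPM (1.90, SE 0.37, adjusted p = 0.0082, and 1.44 scaled, adjusted p = 0.021), and Hist1h2bn from 149, 97.95 and 118 TPM to 343, 268 and 288 TPM (1.31, SE 0.32, adjusted p = 0.022, and 0.85 scaled, adjusted p = 0.044). Lower in level were Hist1h2bh, with 10.5, 8.01 and 8.85 TPM and 27.5, 21.3 and 22.04 TPM (1.28, SE 0.26, adjusted p = 0.0094, and 0.83 scaled, adjusted p = 0.019), and Hist1h2bc, with 54.8, 52.2 and 50.6 TPM and 120.2, 116 and 127 TPM (1.19, SE 0.25, adjusted p = 0.011, and 0.73 scaled, adjusted p = 0.03). In none of the 5 did the dams overlap. Hist1h2bl and Hist1h2bq passed as deposited but not scaled. Hist1h2bq reached 1 TPM in only 3 of the 17 libraries, with a highest value of 1.24 TPM. Its passing of the rule and its call may therefore rest on the same libraries. Hist1h2bj, the remaining gene among the highest in H2b, had 66.2, 59.6 and 37.7 TPM and 87.8, 94.7 and 80.6 TPM (0.71, SE 0.34, adjusted p = 0.16, and 0.26 scaled, adjusted p = 0.65).

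Of H3 and H4, which make the inner tetramer of the nucleosome, 1 gene each was called on both scales. Hist1h4b (chromosome 13, 23757013 to 23757409) stood at 24.39, 14.6 and 18.4 TPM in young of B6 dams and 107, 78.3 and 124 TPM in young of IgA-null dams, without overlap. Its log2 fold change was the largest among the members on either scale (2.38, SE 0.37, adjusted p = 0.0028, and 1.91 scaled, adjusted p = 0.0063). Hist1h4a, the nearest H4 gene, had 20.003, 13.2 and 17.1 TPM and 10.004, 13.6 and 9.06 TPM, which overlapped as deposited, and was not called (-0.58, SE 0.37, adjusted p = 0.27, and -0.98 scaled, adjusted p = 0.17). Scaled, it had 17.5, 10.9 and 14.44 and 6.07, 9.66 and 4.93, which did not overlap, with the IgA-null dam lower. Hist1h4n, at 26.8, 19.9 and 24.6 TPM and 69.7, 50.3 and 41.1 TPM, passed as deposited only (1.12, SE 0.25, adjusted p = 0.014, and 0.67 scaled, adjusted p = 0.15), as did Hist1h4c (0.72, SE 0.21, adjusted p = 0.044, and 0.27 scaled, adjusted p = 0.36). Hist1h4d and Hist1h4h were not called: Hist1h4d had a log2 fold change of 0.68 and Hist1h4h one of 0.071. Hist1h3b, a canonical H3 gene, went from 33.3, 32.2 and 32.2 TPM to 91.7, 65.4 and 126 TPM, without overlap (1.46, SE 0.35, adjusted p = 0.02, and 1.00 scaled, adjusted p = 0.022). Hist1h3e had 52.2, 49.8 and 51.7 TPM and 81.6, 73.3 and 84.7 TPM, which did not overlap either, but was not called (0.63, SE 0.28, adjusted p = 0.13, and 0.18 scaled, adjusted p = 0.71).

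The H1 genes, whose product compacts the chromatin fibre, were not called on either scale. Hist1h1c had 187, 170.5 and 172 TPM and 267, 294 and 346 TPM, which did not overlap as deposited (0.77, SE 0.28, adjusted p = 0.086, and 0.31 scaled, adjusted p = 0.23). Hist1h1b had 235, 199 and 226 TPM and 234, 238 and 279 TPM, with overlap as deposited (0.18, SE 0.33, adjusted p = 0.7, and -0.27 scaled, adjusted p = 0.58). Hist1h1a, at 166, 139 and 153 TPM and 147, 144 and 149 TPM, overlapped as deposited, and its estimate lay under 0 on both scales (-0.051, SE 0.30, adjusted p = 0.91, and -0.51 scaled, adjusted p = 0.24). Scaled, it had 145, 114 and 129 and 89.4, 102 and 81.02, which did not overlap, with the IgA-null dam lower. The median log2 fold change of the 5 was 0.35 (-0.10 scaled), against 0.80 for H2a (0.42 scaled).

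**Figure D3:**
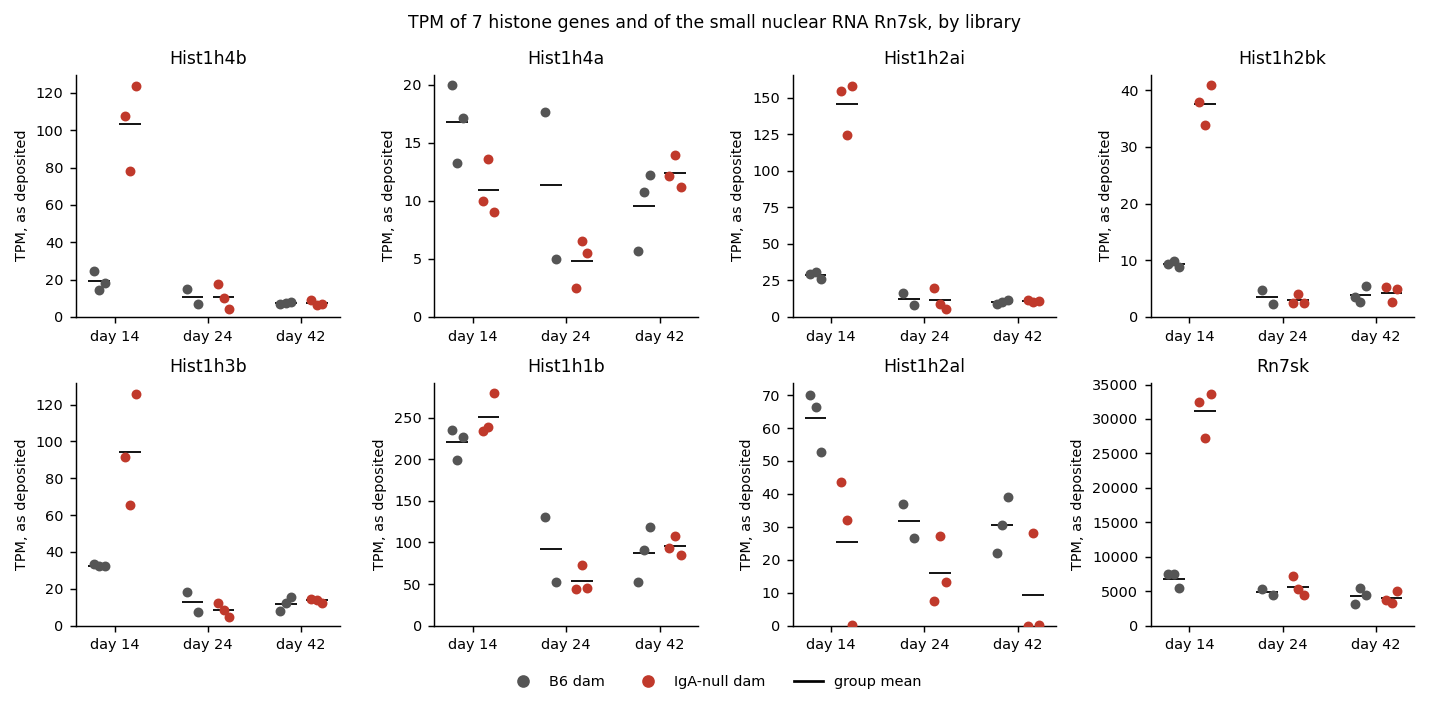
TPM as deposited of Hist1h4b, Hist1h4a, Hist1h2ai, Hist1h2bk, Hist1h3b, Hist1h1b, the pseudogene Hist1h2al and the small nuclear RNA Rn7sk in each library; points are libraries, lines are group means, and axes start at 0. Hist1h4b, Hist1h2ai and Hist1h2bk stand apart in the day 14 group of the IgA-null dam, and Hist1h1b and Hist1h4a do not.

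The calls of Hist1h2ai, Hist1h2bk and Hist1h4b held with each of the 6 day 14 libraries left out in turn, on both scales. As deposited, between 8 and 19 members were called over these omissions, and scaled, between 3 and 7. As deposited the count was 11 and 9 without B6 dam replicate 1 and 2, and 8 and 9 without IgA-null dam replicate 1 and 3. Of the other 8 members called on both scales, the scaled call held in 3 omissions for Hist1h2bh, 2 for Hist1h2bb, 2 for Hist1h3b, 1 for Hist2h2ac and 0 for Hist1h2ak, Hist1h2an, Hist1h2bc and Hist1h2bn. Members whose libraries did not overlap numbered 37 higher and 1 lower as deposited, where 45.1% and 1.1% of all genes did so. Scaled, they numbered 21 and 6, where 16.0% and 15.1% of all genes did so. The share of 50-base windows found in another gene was 90.1% for Hist1h2ai, 74.2% for Hist1h2bk and 54.6% for Hist1h4b. Over the 11 members called on both scales it ran from 17.9% to 90.1%.

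Few of the listed genes that act with the histones passed the test at day 14. Of 32 genes of DNA replication and S phase none was called, and their median was 0.30 (-0.082 scaled) on the log2 scale. Of 18 genes of G2 and mitosis 1 was called higher as deposited and 0 scaled, the kinesin Kif23 (0.67, SE 0.19, adjusted p = 0.043, and 0.25 scaled, adjusted p = 0.36). Of 20 genes for the processing and decay of histone mRNA none was called. Slbp, which binds the stem-loop, stood at 7.91, 8.43 and 9.07 TPM and 13.6, 14.44 and 18.2 TPM (0.79, SE 0.25, adjusted p = 0.057, and 0.35 scaled, adjusted p = 0.15). Of 18 histone chaperones, Asf1b, which hands H3 and H4 to the assembly factors, was called higher as deposited (0.77, SE 0.21, adjusted p = 0.03, and 0.37 scaled, adjusted p = 0.16), and Ubn1 was called lower when scaled (-0.34, adjusted p = 0.026), a gene singled out after its values were seen. Of 11 tested histone variants, which are not made in S phase alone, 2 were called higher as deposited and 0 scaled. The 2 were the centromeric Cenpa (0.69, SE 0.20, adjusted p = 0.041, and 0.29 scaled, adjusted p = 0.23) and H2afz (0.91, SE 0.27, adjusted p = 0.045, and 0.46 scaled, adjusted p = 0.065).

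Several other RNAs without a poly(A) tail were higher as well. Of 18 listed, 11 were tested, and 4 were called higher as deposited and 3 scaled. Rn7sk, the RNA of the 7SK particle, stood at 7479, 7438 and 5465 TPM in young of B6 dams and 32509.9, 27256 and 33659 TPM in young of IgA-null dams, without overlap (2.21, SE 0.26, adjusted p = 0.00077, and 1.75 scaled, adjusted p = 0.0029). Vaultrc5, a vault RNA, had a log2 fold change of 2.36 (1.90 scaled), and Snord118, a small nucleolar RNA, 1.68 (1.22 scaled). The part of these RNAs' difference in that of the histone genes was not tested.

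Markers of the secretory cells of the epithelium also differed at day 14. All 6 goblet cell markers were called higher on both scales (summed level 478 to 732 TPM and 1907 to 3553 TPM), as were 5 of 6 enteroendocrine markers (137 to 152 TPM and 832 to 1213 TPM) and 1 of 6 Paneth cell markers (1271 to 1944 TPM and 2221 to 4033 TPM). None of 6 crypt stem cell markers was called (609 to 937 TPM and 691 to 867 TPM), nor any of 8 enterocyte markers (3452 to 10588 TPM and 3814 to 8459.6 TPM) or 7 general epithelial markers (1889 to 2081 TPM and 2489 to 3167 TPM). The sorted cells thus held the defining epithelial markers in both groups. Of 7 T cell genes 1 was tested and called lower as deposited (1.55 to 3.29 TPM and 0.450 to 1.10 TPM, with Cd2 at 0 in both groups and Cd3e, Cd3g and Cd3d at 0 in the latter), and of 7 macrophage genes 1 of 3 tested was called lower on both scales (3.67 to 10.5 TPM and 2.53 to 5.86 TPM, with C1qb at 0 in both groups and Adgre1 at 0 in the latter). None of 2 tested erythroid genes (1.15 to 2.73 TPM and 1.20 to 1.93 TPM) and none of 2 tested genes of enteric neurons and glia (3.29 to 6.46 TPM and 2.89 to 4.58 TPM) was called. Marker sums of B and plasma cells, endothelium and fibroblasts stayed under 1 TPM at day 14. The part of these cells in the histone values was not tested.

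On chromosome 13 the members lie in 3 runs, from 21715763 to 21832196 (17 genes), from 22035164 to 22043676 (5 genes) and from 23531050 to 23764406 (28 genes), with the pseudogene Hist1h2al alone farther on. Genes called on both scales at day 14 occurred in each run, numbering 4, 1 and 5. Neighbours differed widely. At the end of the last run, Hist1h2bb (1.90), Hist1h3b (1.46) and Hist1h4b (2.38) lie among Hist1h3c (0.068), Hist1h2ab (0.65) and Hist1h4a (-0.58), none of which was called.

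**Figure D4:**
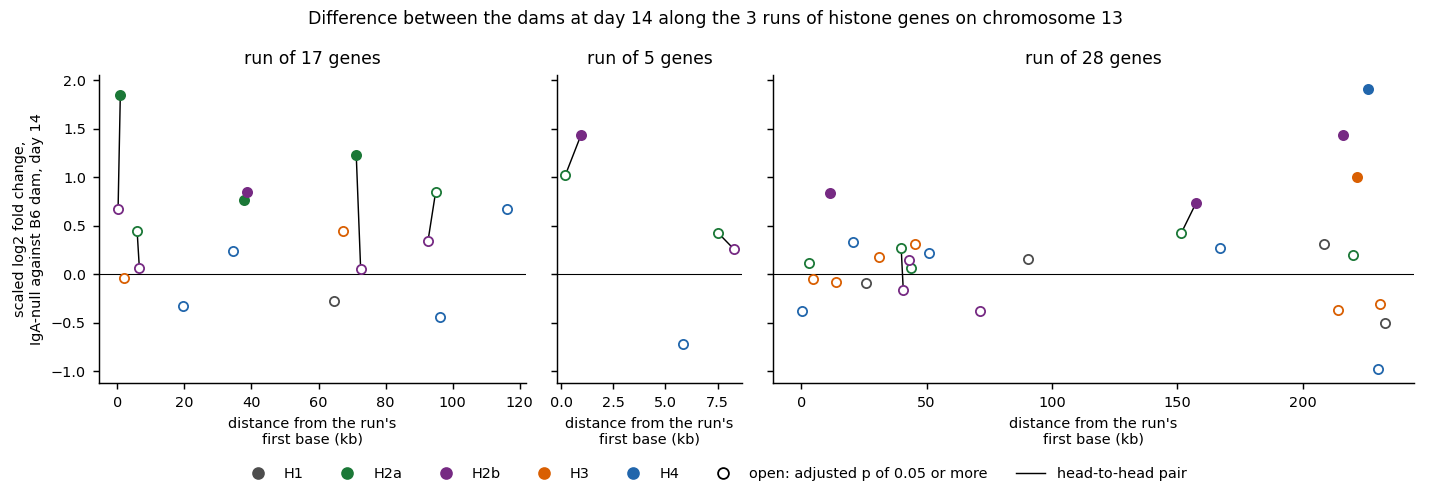
Scaled log2 fold change between the dams at day 14 for the members in the 3 runs on chromosome 13, against the distance in kb from the start of each run; colours give the type, filled points an adjusted p under 0.05, and lines join pairs transcribed away from each other. Called genes occur in all 3 runs beside neighbours near or under 0.

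H2a and H2b genes often stand head to head, with a short stretch of DNA between their starts, and 12 such pairs lay within 500 bases. In the pair Hist1h2ah and Hist1h2bk (301 bases between the models) both genes were called as deposited, with log2 fold changes of 1.47 and 1.89 (1.02 and 1.43 scaled). Hist1h2ak and Hist1h2bn (295 bases) had 1.22 and 1.31 (0.76 and 0.85 scaled), and Hist1h2bl and Hist1h2ai (278 bases) had 1.12 and 2.31 (0.67 and 1.85 scaled). Of the 12 pairs, both partners were called as deposited in 5, a single partner in 2 and neither in 5. The 5 include the pair of Hist1h2bq, near the lower limit of the rule, and Hist1h2ao. The 2 with a single call as deposited were those of Hist1h2an and Hist2h2ac. Scaled, both partners were called in the pair of Hist1h2ak and Hist1h2bn. Hist1h2ai, Hist1h2an, Hist1h2bk, Hist1h2bc and Hist2h2ac were then called without their partners, and the remaining pairs held no call. Hist1h2an had 1.68 and Hist1h2bp, 242 bases away, 0.37, while Hist2h2ac had 1.80 and Hist2h2be, 238 bases away, -0.052. The difference within pairs was not tested.

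Promoters are printed for the head-to-head gene Hist1h2bk and for the neighbouring H4 genes Hist1h4b and Hist1h4a, of which the former was called. They are RefSeq windows on GRCm38.p6, from 250 bases before to 50 after a gene's start, and 52 of the 60 members have one. The windows are chr13:22035571-22035870 (plus strand) for Hist1h2bk, chr13:23756687-23756986 (plus strand) for Hist1h4b and chr13:23761200-23761499 (minus strand) for Hist1h4a. The RefSeq start of Hist1h4b lies 76 bases from that of GENCODE, and that of Hist1h4a 19 bases. Capitals mark matches, on either strand, to the CCAAT box (searched as CCAAT), the TATA box (searched as TATAAA), the octamer that binds Oct factors (ATTTGCAT), the AC box of H1 genes (AAACACA) and E2F-type sites (TTCCCGCC, and TTTGGCGC as a second form).
Hist1h2bk: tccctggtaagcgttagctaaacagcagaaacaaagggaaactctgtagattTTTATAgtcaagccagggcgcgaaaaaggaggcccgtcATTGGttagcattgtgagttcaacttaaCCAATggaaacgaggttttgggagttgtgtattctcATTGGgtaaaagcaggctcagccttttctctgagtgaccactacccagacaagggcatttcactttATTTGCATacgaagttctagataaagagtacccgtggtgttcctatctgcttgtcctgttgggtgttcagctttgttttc
Hist1h4b: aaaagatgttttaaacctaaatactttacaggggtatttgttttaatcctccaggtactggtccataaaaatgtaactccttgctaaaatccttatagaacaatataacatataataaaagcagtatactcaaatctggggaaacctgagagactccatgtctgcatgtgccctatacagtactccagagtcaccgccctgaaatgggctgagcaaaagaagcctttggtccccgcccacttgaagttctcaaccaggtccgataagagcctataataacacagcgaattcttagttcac
Hist1h4a: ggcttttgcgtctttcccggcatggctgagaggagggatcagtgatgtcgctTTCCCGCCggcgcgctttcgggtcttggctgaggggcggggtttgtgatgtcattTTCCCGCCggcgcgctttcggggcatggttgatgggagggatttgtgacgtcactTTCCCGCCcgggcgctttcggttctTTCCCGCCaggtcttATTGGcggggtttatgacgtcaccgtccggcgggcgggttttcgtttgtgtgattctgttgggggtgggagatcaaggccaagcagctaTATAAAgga
The Hist1h2bk window holds CCAAT, TATA and octamer letters and overlaps the window of Hist1h2ah on the opposite strand. That of Hist1h4a holds the E2F-type, CCAAT and TATA letters, and that of Hist1h4b holds none of those searched. The TATA letters of Hist1h2bk lie early in its window, far before its start, and read on the opposite strand. Those of Hist1h4a lie among the last bases printed. The search took no account of where in a window a match lay. A match describes letters in these windows and is not shown to be a bound site.

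Across the members with a window, CCAAT occurred in all 5 H1, 14 H2a, 13 H2b and 8 H3 promoters but in 3 of 12 H4 promoters, where 37.9% of all 27025 promoters of the same length held it. The octamer occurred in 6 of 14 H2a and 4 of 13 H2b promoters and in none of the other types (1.75% of all promoters). The AC box occurred in 4 of 5 H1 promoters, 1 H2a and 1 H2b promoter (7.14% of all), and the E2F-type letters in 5 of 12 H4 promoters and in none of the other types (2.24% of all). The second E2F-type form occurred in no member's window (0.537% of all). TATA letters occurred in every type, from 4 of 8 H3 to 4 of 5 H1 promoters (14.16% of all).

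Genes called at day 14 occurred in each class of transcript model, a class that describes the annotation and not the measured end of the mRNA. Of the 17 members whose transcript ends near the stem-loop, 7 were called higher at day 14 (5 scaled). Of the 22 with no stem-loop in the model it was 8 (5 scaled), and of the 21 whose transcript runs on past it, 3 (1 scaled). The median scaled log2 fold change was 0.33, 0.19 and -0.068 in these classes. The difference between classes was not tested.

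The pseudogene Hist1h2al (chromosome 13, 51202727 to 51203065) varied widely within groups. With the B6 dam it stood at 70.1, 66.5 and 52.7 TPM at day 14, 36.9 and 26.6 TPM at day 24 and 22.04, 30.6 and 38.9 TPM at day 42. In young of IgA-null dams it stood at 43.7, 32.2 and 0.307 TPM, 7.51, 27.1 and 13.3 TPM and 0, 28.03 and 0.267 TPM. Single libraries of the IgA-null dam were near or at 0 while others of the same group were not, and the gene was called in no comparison (day 14 -2.35, SE 1.17, adjusted p = 0.18). Hist1h2aj and Hist3h2bb-ps stayed at or under 2.19 and 2.44 TPM in every library.

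At day 24 no member was called between the dams. The share of all genes called was 0.0265% as deposited and 0.0% scaled, and the limma test gave 21 members as deposited and 6 scaled at an unadjusted p under 0.05. The members' median log2 fold change was -0.59 against -0.38 for all genes, and -0.11 against -0.03 scaled. Hist1h4n had the lowest value, with 33.1 and 20.2 TPM with the B6 dam and 10.7, 12.9 and 8.12 TPM with the IgA-null dam (-1.23, SE 0.28, adjusted p = 0.06, and -0.70 scaled, adjusted p = 0.44). The dams did not overlap there. As deposited the B6 dam libraries differed from each other by more than the gap between the dams, and scaled (30.5 and 29.8 and 14.9, 23.7 and 16.9) by less. Without B6 dam day 24 replicate 2, which leaves 1 library in that group, members were called as deposited but not scaled. The share of all genes called in that fit was not worked out.

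At day 42, where the dates in the labels are the same, no member was called either. No gene of the 15066 was called as deposited (0.0%) or scaled (0.0%), and 1 member as deposited and 2 scaled had an unadjusted p under 0.05 in limma. Hist1h2ai had 8.73, 10.05 and 11.8 TPM with the B6 dam and 11.7, 10.1 and 11.2 TPM with the IgA-null dam, Hist1h2bk had 3.47, 2.55 and 5.39 TPM and 5.34, 2.70 and 4.84 TPM, and Hist1h4b had 7.002, 7.40 and 7.94 TPM and 9.26, 6.36 and 6.72 TPM. The dams overlapped in all of these.

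The difference of the dam effect between days was tested by itself, with a moderated F test in the same limma fit. It called 5 members as deposited, where 1.75% of all genes were called, and 0 scaled, where 0.139% were. These were Hist1h4n, Hist1h2ai, Hist1h2bk, Hist1h4b and Hist1h2ah, with adjusted p from 0.025 to 0.048, and from 0.068 to 0.37 scaled. For Hist1h2ai the dam effect at day 24 was -2.50 relative to day 14 on the log2 scale, and -2.20 at day 42. For Hist1h2bk these values were -2.02 and -1.74, and for Hist1h4n -2.35 and -1.15. With single libraries left out, the count ran from 0 to 48 as deposited and from 0 to 2 scaled. The highest count came without B6 dam day 24 replicate 2, which leaves 1 library in that group. No member was called without B6 dam day 14 replicate 1 or 2, B6 dam day 24 replicate 1 or IgA-null dam day 14 replicate 1. The share of all genes called in these fits was not worked out.

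From day 14 to day 24, histone genes of every type fell with the B6 dam, among them all 5 H1 genes. As deposited 20 of 60 members were called lower and none higher, where 8.61% of all genes were called (6.99% lower). Scaled, 15 were called lower and none higher, where 13.8% were called (5.91% lower), and 13 members were called on both scales. The called genes were 5 of 5 H1 (4 scaled), 7 of 16 H2a (7 scaled), 1 of 16 H2b (1 scaled), 5 of 10 H3 (2 scaled) and 2 of 13 H4 (1 scaled). The median log2 fold change was -0.84 against -0.29 for all genes, and -0.41 against 0.0075 scaled.

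The largest falls came from several types. Hist1h3c went from 25.9, 18.7 and 28.1 TPM at day 14 to 9.97 and 5.21 TPM at day 24 (-1.59, SE 0.31, adjusted p = 0.0038, and -1.17 scaled, adjusted p = 0.033). Hist1h2af went from 59.9, 58.7 and 42.4 TPM to 26.7 and 10.8 TPM (-1.58, SE 0.36, adjusted p = 0.013, and -1.14 scaled, adjusted p = 0.024). Of the linker histones, Hist1h1b went from 235, 199 and 226 TPM to 131 and 52.6 TPM (-1.39, SE 0.37, adjusted p = 0.027, and -0.93 scaled, adjusted p = 0.035). In all of these the days did not overlap as deposited. Hist1h4m went from 61.3, 42.1 and 44.1 TPM to 20.95 and 12.6 TPM (-1.52, SE 0.35, adjusted p = 0.012, and -1.08 scaled, adjusted p = 0.0087), and Hist1h2ab from 93.5, 87.4 and 69.5 TPM to 41.5 and 22.6 TPM (-1.40, SE 0.35, adjusted p = 0.019, and -0.95 scaled, adjusted p = 0.026). Hist1h4h, of higher level, had 100.1, 79.8 and 101 TPM and 85.4 and 51.5 TPM, with overlap, and was not called (-0.48, SE 0.27, adjusted p = 0.26, and -0.026 scaled, adjusted p = 0.97). The counts rest on the 2 libraries of day 24. As deposited, more members were called without B6 dam day 24 replicate 1 and none without replicate 2. Either omission leaves 1 library in that group. Without the day 14 replicates in turn, 5, 10 and 11 members were called, and in a fit of these groups alone none. The share of all genes called in these fits was not worked out.

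With the IgA-null dam, nearly all members were lower at day 24 as deposited, as were most genes. There 58 of 60 members were called lower, where 83.8% of all genes were called (82.9% lower). Scaled, 36 were called lower and none higher, where 16.6% of all genes were called (8.28% lower). These were 4 of 5 H1, 10 of 16 H2a, 10 of 16 H2b, 7 of 10 H3 and 5 of 13 H4 genes, and H4 had the lowest share of the types. The median log2 fold change was -2.22 against -1.02 for all genes, and -0.81 against -0.025 scaled. Members whose days did not overlap numbered 55 lower as deposited (79.9% of all genes) and 39 scaled (18.3% of all genes). With single libraries left out, between 24 and 37 were called scaled.

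The largest falls were in genes that had been called between the dams at day 14, and these values share the day 14 libraries with the comparison of the dams. Hist1h2ai went from 155, 124 and 158 TPM to 19.9, 9.11 and 5.30 TPM (-3.73, SE 0.33, adjusted p = 1.7e-06, and -2.30 scaled, adjusted p = 3.9e-05). Hist1h2an fell to 9.55, 5.81 and 4.81 TPM (-3.43, and -2.04 scaled), Hist1h3b to 12.2, 8.66 and 4.46 TPM (-3.38, and -1.97 scaled) and Hist1h4b to 17.4, 10.3 and 4.03 TPM (-3.34, and -1.92 scaled). The scaled falls of the linker histones are given for both dams. Hist1h1c had -0.90 in young of IgA-null dams and -0.83 in those of B6 dams, and Hist1h1e had -0.87 and -0.71. Hist1h4a (-1.08 as deposited, adjusted p = 0.014) and Hist1h4h (-1.33, adjusted p = 0.00017) turned to 0.23 and 0.14 scaled and were then not called (adjusted p = 0.71 and 0.73).

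**Figure D5:**
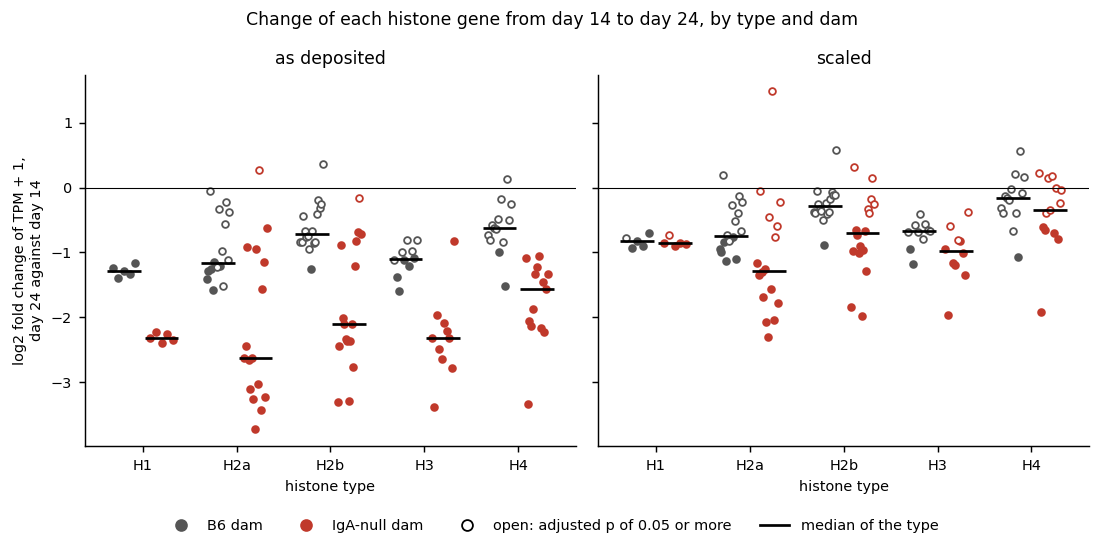
log2 fold change of TPM + 1 from day 14 to day 24 for each gene, by histone type and dam, as deposited and scaled, with filled points where the adjusted p was under 0.05. Nearly all points lie under 0 as deposited; scaled, the H1 medians are -0.83 for B6 dams and -0.86 for IgA-null dams, and those of H4 -0.16 and -0.34.

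Genes of the cell cycle were also called lower at day 24. With the B6 dam these were 8 of 18 genes of G2 and mitosis (9 scaled), among them the kinetochore protein Cenpf (-1.28, SE 0.25, adjusted p = 0.0038, and -0.92 scaled, adjusted p = 0.0012) and the topoisomerase Top2a (-1.24, SE 0.28, adjusted p = 0.011, and -0.81 scaled, adjusted p = 0.0026). Of 32 genes of S phase 1 was called, the clamp loader subunit Rfc4 (-1.07, SE 0.30, adjusted p = 0.034, and -0.69 scaled, adjusted p = 0.043). With the B6 dam 6.99% of all genes were called lower as deposited and 5.91% scaled. With the IgA-null dam all 18 and all 32 were called lower as deposited, where 82.9% of all genes were. Scaled, 9 and 9 were called lower there, where 8.28% of all genes were. Of the 20 tested processing genes, Slbp was the one called lower when scaled there (-0.53, adjusted p = 0.018), and none was called with the B6 dam. Beside these, with the B6 dam 3 of 6 enteroendocrine and 1 of 6 goblet cell markers were called higher as deposited (6 and 4 scaled). With the IgA-null dam 6 and 5 were called lower as deposited (1 and 0 scaled). Of the crypt stem cell markers, 2 of 6 were called lower with the B6 dam (1 scaled) and 6 of 6 with the IgA-null dam (0 scaled). With the B6 dam, 2 of 3 tested macrophage genes (3.67 to 10.5 TPM in sum at day 14 and 1.97 to 3.09 TPM at day 24), the 1 tested T cell gene (1.55 to 3.29 TPM and 0.354 to 1.79 TPM) and both tested genes of enteric neurons and glia (3.29 to 6.46 TPM and 0.841 to 1.09 TPM) were called lower on both scales, and the third tested macrophage gene, Cd14, was called higher when scaled (0.72, SE 0.27, adjusted p = 0.1, and 0.89 scaled, adjusted p = 0.032). Of the 6 Paneth cell markers 1 and of the 8 enterocyte markers 1 were called higher on both scales. With the IgA-null dam, both tested genes of enteric neurons and glia were called lower as deposited and 1 scaled (2.89 to 4.58 TPM in sum at day 14 and 0.265 to 0.602 TPM at day 24). Of the macrophage genes 1 was called lower as deposited and 1 higher when scaled there (2.53 to 5.86 TPM and 1.92 to 2.90 TPM), and 1 of 6 Paneth cell markers was called higher when scaled (2221 to 4033 TPM and 1278 to 3591 TPM). Of the 8 enterocyte markers 1 was called higher and 1 lower as deposited (1 higher scaled), and of the 7 general epithelial markers 6 were called lower as deposited (0 scaled, where 1 was called higher). Of the 2 tested erythroid genes, 1 was called higher and 1 lower as deposited and 0 scaled (1.20 to 1.93 TPM and 0.968 to 36.3 TPM). The part of these cells in the histone values was not tested.

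From day 24 to day 42 no member was called with the B6 dam, where 0.0199% of all genes were called as deposited and 0.0265% scaled. At an unadjusted p under 0.05 limma gave 1 member as deposited and 9 scaled. With the IgA-null dam 18 were called higher as deposited, where 49.3% of all genes were called (48.5% higher), and scaled 1 was called higher and 1 lower, where 2.58% were called. The gene higher on both scales was Hist2h2be, an H2b gene, at 0.486, 0.141 and 0.204 TPM on day 24 and 3.49, 1.59 and 1.55 TPM on day 42 (1.29, SE 0.20, adjusted p = 0.0023, and 1.05 scaled, adjusted p = 0.013). Its days did not overlap, and its level was near the lower limit of the rule. Hist1h4f was the gene called lower when scaled (0.028, SE 0.26, adjusted p = 0.94, and -0.82 scaled, adjusted p = 0.038). The other large rises as deposited were those of Hist1h2bg, from 4.23, 7.09 and 5.10 TPM to 17.2, 16.7 and 15.2 TPM (1.45, SE 0.22, adjusted p = 0.0023, and 0.68 scaled, adjusted p = 0.096), Hist1h4a (1.27, SE 0.37, adjusted p = 0.014, and 0.52 scaled, adjusted p = 0.43) and Hist1h1a (1.15, SE 0.30, adjusted p = 0.0082, and 0.30 scaled, adjusted p = 0.45), and none of these was called when scaled. As deposited 8 members were called without IgA-null dam day 24 replicate 3, and 11 and 10 without the day 42 replicates 1 and 2. Beside these, 6 of 6 enteroendocrine markers were called higher (3 scaled), with 133 to 267 TPM in sum at day 24 and 728 to 1418 TPM at day 42. Of the crypt stem cell markers 6 of 6 were called higher (0 scaled, 301 to 391 TPM and 826 to 960.0 TPM), of the goblet cell markers 3 of 6 (0 scaled, 681 to 1607 TPM and 1571 to 2061 TPM), of the general epithelial markers 5 of 7 (0 scaled, 843 to 1853 TPM and 2048 to 2556 TPM) and of the macrophage genes 1 of 3 tested (0 scaled, 1.92 to 2.90 TPM and 3.39 to 5.09 TPM). Of 8 enterocyte markers 4 were called lower (1 scaled, 1717 to 4178 TPM and 438 to 945 TPM). Of the listed genes, 27 of 32 of S phase and 18 of 18 of G2 and mitosis were called higher, and 0 of either scaled. The part of these cells in the histone values was not tested.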

How the data were processed

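RNA of sorted small-intestinal cells was amplified with SMART-seq v4 and made into Nextera XT libraries, per the labels' protocols. The authors deposited 1 table of TPM per gene symbol for all 17 libraries. The submitters' processing notes name Bowtie2, Subread and DESeq2 and the build mm10. Counting settings and the gene annotation are not given in the sources used here.

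From these values, log2(TPM + 1) was fitted with limma 3.58.1 (limma-trend, R 4.3.3) over all 17 libraries in 6 groups. Genes with at least 1 TPM in at least 2 libraries entered, p-values were adjusted by Benjamini-Hochberg over all 15066, and a gene was called at an adjusted p under 0.05. Fold changes are of log2(TPM + 1), so those of genes with few TPM are understated, and SE is the moderated standard error as deposited. The script was tested on simulated data. Python 3.11.15 with pandas 2.3.3, numpy 2.4.6 and matplotlib 3.10.9 made sums and plots.

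TPM steps times GENCODE M21 exon lengths gave whole reads for 93.6% of values above 0 over 49612 genes (within 0.01 reads or 0.0001 relative). These reads describe depth and entered no test. The mean over libraries ran from 3.35 reads for Hist1h2aj to 2867 for Hist1h1c.

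The members, the gene lists and the rule for naming were chosen with earlier results of these data known. Members are named with values where they are among the 4 highest of their type, were called between dams on both scales, are among the 4 largest called rises or falls between ages, are among the leading calls of the difference between days, or are pseudogenes. Members beyond these are named as neighbours or pair partners, or for a call that did not hold, and were chosen after their values were seen. Of the listed genes up to 4 called are named.

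The alternatives tried were pseudocounts of 0.1 and 5, no filter or a filter at 5 TPM, division by size factors, TPM without Gm23935 and the mitochondrial genes, fits of the compared groups alone, the sample number as a block, and leaving out each library.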

Additional observations from a re-analysis of the deposited data

Results flagged for a closer look

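The dam effect differed between days, by the moderated F test of limma with Benjamini-Hochberg adjustment, for 5 members as deposited and for none after scaling. Of all genes 1.75% were called as deposited and 0.139% scaled. The count of members as deposited fell to 0 with some single libraries left out. The adjusted p was 0.0254 for Hist1h4n (0.31 scaled), 0.0312 for Hist1h2ai (0.0683 scaled), 0.0312 for Hist1h2bk (0.24 scaled), 0.0382 for Hist1h4b (0.129 scaled) and 0.0482 for Hist1h2ah (0.367 scaled). In all 5 the dam effect as deposited was lower at days 24 and 42 than at day 14. Relative to day 14 it was -2.52 at day 24 and -2.39 at day 42 for Hist1h4b on the log2 scale, and -2.07 and -1.43 for Hist1h2ah. The dates in the labels differ between the dams at days 14 and 24, so that date and dam cannot be told apart there.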

How the results depend on the processing

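Counts are of the 60 members called by limma. Beyond the fits as deposited and scaled, the share of all genes called was not worked out, so these counts do not single out the histone genes. Ranges with 1 library left out include fits with 1 library in the B6 dam group of day 24. The day 14 difference between dams was called for 18 members, for 11 scaled, 7 with TPM rescaled without Gm23935 and the mitochondrial genes, 28 in a fit of those groups alone, and 8 to 19 with 1 library left out (3 to 7 scaled). The day 24 difference between dams (0) became 2 with a pseudocount of 0.1, 6 with a filter at 5 TPM and 0 to 35 with 1 library left out. With the B6 dam, day 24 against day 14 (20) became 8 with no filter, 0 in a fit of those groups alone and 0 to 40 with 1 library left out. With the IgA-null dam it (58) became 36 scaled and 24 to 57 over both scales with 1 library left out, and day 42 against day 24 (18) became 11 with no filter, 2 scaled, 2 without Gm23935 and the mitochondrial genes, and 8 to 22 with 1 library left out (1 to 6 scaled). The difference of the dam effect between days (5) became 2 and 15 with pseudocounts of 0.1 and 5, 1 with no filter, 11 with a filter at 5 TPM, 0 scaled or without Gm23935 and the mitochondrial genes, and 0 to 48 with 1 library left out. The day 42 difference between dams and the B6 dam change from day 24 to day 42 were called for no member under any of these. The cause of these shifts was not tested.

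After scaling, single estimates with the IgA-null dam turned from their direction as deposited. From day 14 to day 24 these were Hist1h4a (0.23) and Hist1h4h (0.14). From day 24 to day 42 they were Hist1h1b (-0.017), Hist1h1e (-0.16), Hist1h3e (-0.092), Hist1h4d (-0.12) and Hist1h4h (-0.028). The same values came with the replicate block and scaling together. With 1 library left out, the estimates that turned in at least 1 such fit ran, over both scales, from day 14 to day 24 over -1.30 to 0.74 (Hist1h4a), -1.56 to 0.51 (Hist1h4h), -1.70 to 0.16 (Hist1h4m). From day 24 to day 42 they ran over -0.0071 to 1.32 (Hist1h1a), -0.31 to 1.06 (Hist1h1b), -0.23 to 0.79 (Hist1h1e), -0.067 to 1.36 (Hist1h2af), -0.032 to 1.11 (Hist1h3a), -0.31 to 1.18 (Hist1h3c), -0.35 to 0.99 (Hist1h3e), -0.30 to 0.95 (Hist1h4d) and -0.39 to 1.05 (Hist1h4h).

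The sample numbers did not pair the samples: same-numbered deviations between dams at day 14 correlated at 0.11, -0.13 and -0.065, and in no comparison were all such correlations over 0.1. With the replicate block the counts were 16 for the dams at day 14, 11 for day 24 against day 14 with the B6 dam and 4 for the difference between days. Replicate block and scaling together gave 9, 12 and 0 for these, and 33 and 1 for the IgA-null dam from day 14 to 24 and from day 24 to 42. The settings that joined scaling with the block or with a left-out library were chosen after seeing the data. The planned limma-voom fit on recovered reads is not reported, because methods for counts were not kept for a table of TPM.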

Other observations

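Across the 60 members, several properties of the transcript varied with the scaled log2 fold change between the dams at day 14. Spearman's rho was 0.37 with the share of 50-base windows found in another gene, 0.31 with GC content, -0.31 with transcript length and -0.20 with the longest run of A. Pearson's r was 0.28, 0.18, -0.13 and -0.069 in the same order. These are descriptions across genes, which share the same libraries and, in part, their sequence, and carry no test. The median share of windows found in another gene was 54.6% in the 11 members called on both scales and 48.2% in all members.

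Among the lists of other genes, the chaperones moved in both directions from day 14 to day 24 with the IgA-null dam when scaled, with 5 of 18 called lower and 1 called higher. Of 11 tested replication-independent variants, 6 were called lower there when scaled, and 1 with the B6 dam. As deposited all 18 chaperones and all 11 variants were called lower with the IgA-null dam, where 83.8% of all genes were called.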
